A study of Mus musculus with 4 samples.

Results

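The Toll-like receptors are a family of membrane proteins that detect molecules of microbes and of damaged cells, and the genes described here are Tlr1, Tlr2, Tlr3, Tlr4, Tlr5, Tlr6, Tlr7, Tlr8, Tlr9 and Tlr13. These 10 genes were taken by name from the count tables, and each was found once among the 54532 genes that both tables hold. RNA was measured in 4 libraries of primary microglia, the resident macrophages of the brain, which had been given 1 µM EGCG or the DMSO vehicle for 24 h. EGCG is epigallocatechin gallate, a flavan-3-ol of green tea. There were 2 libraries per group, numbered 1 and 2 in each. All cells came from the cortex of male CD1 pups aged 1 to 3 days, an outbred strain. In both groups the mixed glia had received GM-CSF, trypsin removed the astrocyte layer, and the remaining microglia were held in serum-free medium with IL-34, TGFβ2, GM-CSF and cholesterol before and during treatment. No microbial ligand was among the treatments of these libraries, so the values describe receptor transcripts without such a stimulus.

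Toll-like receptors bind their ligands with a domain of leucine-rich repeats and pass the signal on through a TIR domain inside the cell. TLR1, TLR2, TLR4, TLR5 and TLR6 act at the cell surface on lipids and proteins of microbes, whereas TLR3, TLR7, TLR8, TLR9 and TLR13 act in endosomes on nucleic acids. The adaptors MYD88 and TRIF (Ticam1), of which TLR3 uses TRIF, lead from the receptors to NF-κB and interferon regulatory factors. Microglia are known as the main cells of the brain that carry these receptors.

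Before the values of Tlr1 and Tlr6 are compared, their sequences need to be seen, because reads can be shared between them. In GRCm38 both genes lie on the minus strand of chromosome 5, Tlr1 at chr5:64924679-64933563 and Tlr6 at chr5:64952031-64960097, with 18467 bases between them. Their coding sequences, each within 1 exon, were 76.3% identical over 2350 aligned bases. The likeness was uneven, since an aligned stretch of 1076 bases in their transcripts was 94.9% identical. Of all pairs among the 10 members, only Tlr1 and Tlr6 had an identical run of at least 30 coding bases. The longest such run, 229 bases, covered coding bases 1468 to 1696 of Tlr1 (chr5:64925537-64925765) and 1507 to 1735 of Tlr6 (chr5:64953828-64954056), and it is printed in lower case, since every base is the same in both genes.
Tlr1 and Tlr6, shared coding run: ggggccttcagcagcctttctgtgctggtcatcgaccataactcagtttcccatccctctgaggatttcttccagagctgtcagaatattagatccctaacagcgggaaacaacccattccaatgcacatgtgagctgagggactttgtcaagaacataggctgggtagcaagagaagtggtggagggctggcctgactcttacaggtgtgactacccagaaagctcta
A read lying wholly in this run gives by itself no sign of its gene, though its mate may lie outside the run. Of the 2289 windows of 100 bases in the coding sequence of Tlr1, 259 (11.3%) occurred unchanged in Tlr6. These windows are shorter than the reads, so this is not the share of ambiguous reads. How the authors counted reads that match more than 1 gene is not given in the sources used here, so the counts of Tlr1 and Tlr6 are uncertain in this respect. No other pair of members had such windows. Tlr3 overlaps the antisense gene Gm45542 over 117 bases, where 0 to 3 reads per library were counted.

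Members differed widely in level. Levels are given as RPKM, read counts divided by gene length and by library size after scaling with edgeR's TMM factors, so that genes of different length can be compared. Total counts on genes ran from 33752397 to 54909854 per library, and a count of 3, taken as the smallest the depth can show, equals 0.0544 to 0.0936 CPM (counts scaled to the TMM-adjusted library size, without gene length). Values are listed in the order Vehicle replicate 1, EGCG replicate 1, Vehicle replicate 2 and EGCG replicate 2. The 9 members other than Tlr5 had between 782 and 19182 counts in each library.

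Tlr2, the receptor for microbial lipopeptides, had the highest mean. Its levels were 89.6, 83.2, 98.8 and 115 RPKM, a mean of 96.7 ± 14.0 (SD, n = 4 libraries). The highest value was that of EGCG replicate 2, and the groups overlapped, since EGCG replicate 1 was the lowest. Tlr13, which detects bacterial ribosomal RNA and has no functional human counterpart, was at 82.2, 87.5, 70.1 and 77.4 RPKM (mean 79.3 ± 7.40). Tlr7, a receptor for single-stranded RNA, was the steadiest member, at 75.7, 80.9, 75.6 and 75.1 RPKM (76.8 ± 2.73), with a ratio of 1.08 between the highest and lowest library. These 3 genes were above 96.1% to 96.9% of the 13811 genes tested, and the range of Tlr13 overlapped those of Tlr2 and Tlr7. Tlr2 was above Tlr7 in all 4 libraries, without overlap.

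Below these came Tlr1, Tlr8, Tlr4 and Tlr9, of which Tlr1 and Tlr9 varied between libraries. Tlr1, the partner of TLR2 for triacylated lipopeptides, was at 11.9, 15.0, 42.9 and 42.2 RPKM. Its libraries of replicate 1 were low and those of replicate 2 high, whatever the treatment, and its mean of 28.0 ± 16.8 stands for no single library. Tlr9, the receptor for unmethylated CpG DNA, showed the same split at 6.85, 8.86, 25.9 and 24.6 RPKM (16.6 ± 10.1). Tlr8, which lies beside Tlr7 on chromosome X, was at 26.1, 24.9, 29.4 and 27.2 RPKM (26.9 ± 1.94). Tlr4, the receptor for lipopolysaccharide, was at 16.3, 15.5, 17.9 and 18.3 RPKM (17.0 ± 1.29). The groups overlapped for each of these genes.

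Tlr6, the partner of TLR2 for diacylated lipopeptides, was at 7.99, 9.09, 11.2 and 11.6 RPKM (9.96 ± 1.70). Tlr3, the dsRNA receptor that signals through TRIF, was the lowest of the 9 at 6.35, 6.41, 7.80 and 7.81 RPKM (7.09 ± 0.823), still above 61.3% of genes tested. Both were lower in the replicate 1 libraries than in those of replicate 2. Tlr5, the flagellin receptor, had 0 counts in both libraries of replicate 1 and 4 in each library of replicate 2. A count of 0 at these depths allows up to 3 counts, at most 0.0195 RPKM, and the replicate 2 values were 0.0228 and 0.0151. Of the receptor genes outside the 10, Tlr12 had 13 to 55 counts and Tlr11 had 0 to 2. Chromosome, start and end of the remaining members in GRCm38 are chr3:83836272-83841767 for Tlr2, chr8:45395665-45411080 for Tlr3, chr4:66827584-66930284 for Tlr4, chr1:182954788-182976044 for Tlr5, chr9:106222598-106226883 for Tlr9, and on chromosome X 167304929 to 167330558 for Tlr7, 167242696 to 167264329 for Tlr8 and 106143204 to 106160493 for Tlr13.

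**Figure D1:**
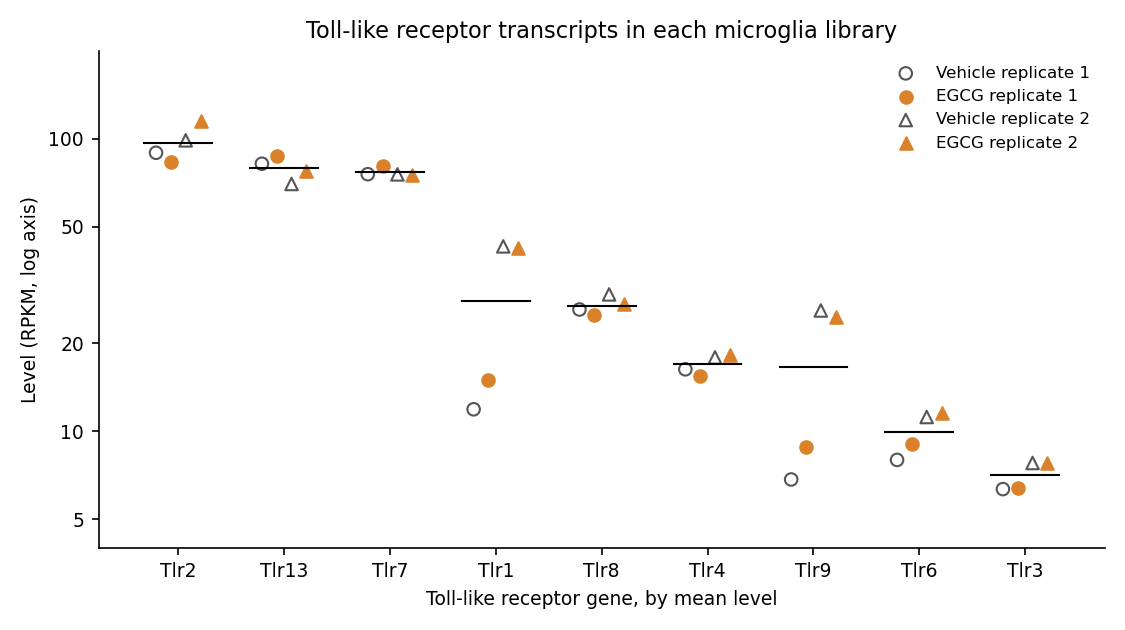
Level of the 9 tested Toll-like receptor genes in each library, in RPKM on a log axis. Circles are replicate 1 and triangles replicate 2, open grey symbols Vehicle and filled orange symbols EGCG, and the bar is the mean of 4 libraries. Tlr1 and Tlr9 fall into a low replicate 1 pair and a high replicate 2 pair, while Tlr7 stays between 75.1 and 80.9 RPKM.

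In the order of mean levels, 4 steps had ranges that did not overlap, namely from Tlr7 to Tlr1, from Tlr8 to Tlr4, from Tlr6 to Tlr3 and from Tlr3 to Tlr5. The other 5 neighbours overlapped, and Tlr1 and Tlr9 changed place with the replicate number. Tlr1 ranked 6 in both libraries of replicate 1 and 4 in both of replicate 2, and Tlr9 ranked 8 and then 6. Ranking by TPM, in which the length-scaled values of each library share 1 total, gave the same order of means.

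Summed over the 10 members, the level was 323, 331, 380 and 399 RPKM. The endosomal receptors made up 197, 209, 209 and 212 RPKM of this, a narrow range. The surface receptors were at 126, 123, 171 and 187 RPKM, or 38.9%, 37.1%, 45.0% and 46.9% of the family. Both replicate 2 libraries were thus higher for the surface receptors, and the treatment groups overlapped. The partner receptors of TLR2 stood in unequal amounts. The ratio of Tlr1 to Tlr6 was 1.49, 1.65, 3.84 and 3.65, and that of Tlr2 to Tlr1 was 7.54, 5.54, 2.30 and 2.74. The ratio of Tlr2 to Tlr6 moved less, at 11.2, 9.14, 8.84 and 9.98. Among the paired genes of chromosome X, Tlr7 exceeded Tlr8 by 2.57 to 3.25 times in every library.

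**Figure D2:**
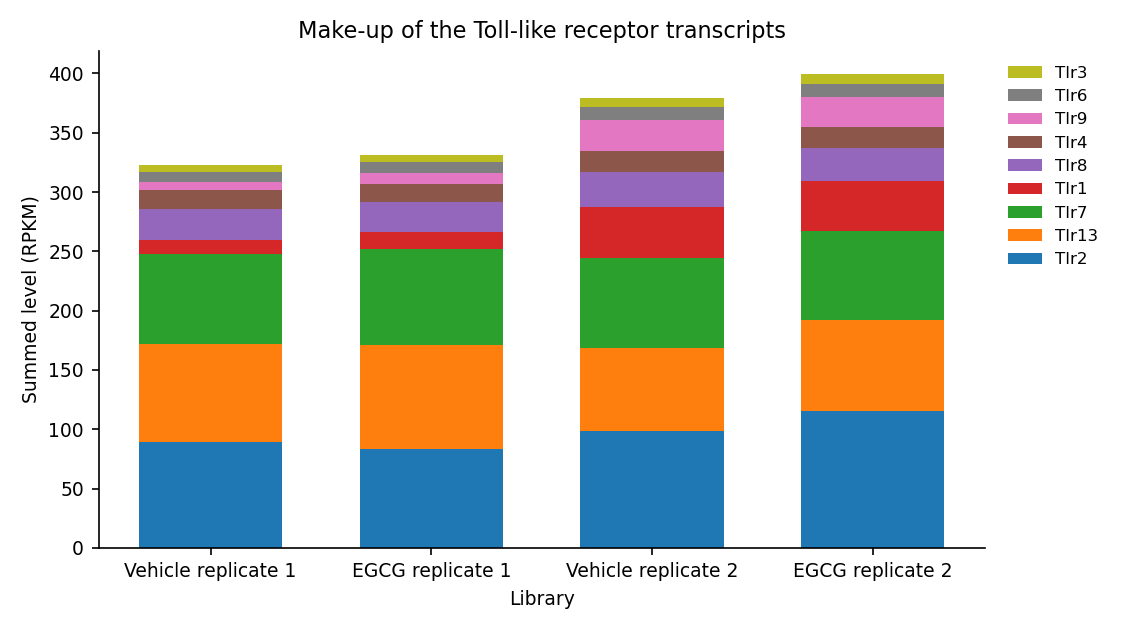
Summed level of the Toll-like receptor genes in each library in RPKM, stacked by gene (Tlr5, at or near 0, is left out). The total ran from 323 to 399 RPKM, and the Tlr1 and Tlr9 segments are wider in the 2 bars of replicate 2.

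The comparison of EGCG with Vehicle asks whether the flavan-3-ol changes the microglial transcriptome. No Toll-like receptor gene passed the test. With edgeR (quasi-likelihood F test, no term but treatment), 0 of the 9 members tested had an unadjusted p under 0.05, against a background of 0.116% of the 13811 genes (16 genes). A test that calls so few genes says little about 9 members. At an adjusted p under 0.1 (Benjamini-Hochberg) the test called 0 members and 0% of genes. DESeq2 likewise gave 0 members at an unadjusted p under 0.05, with a background of 0.174%. Tlr5 did not reach the 10 summed counts required for testing. The lowest p among the members was 0.547, and the adjusted p from edgeR was 1.0 for all 9.

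Differences were small on the log2 scale in both directions. Tlr13 was 0.11 higher in EGCG (standard error 0.17), at 76.2 ± 8.56 RPKM in Vehicle and 82.5 ± 7.18 in EGCG (SD, n = 2 each). Tlr2 differed by 0.08 (standard error 0.22) and Tlr6 by 0.11 (standard error 0.24). Tlr8 had the most negative difference, -0.09 (standard error 0.14), at 27.7 ± 2.38 RPKM in Vehicle and 26.0 ± 1.65 in EGCG. The others lay between -0.02 (Tlr4) and 0.06 (Tlr1). None of these exceeded the spread between replicates. The median over the 9 members was 0.04, beside 0.01 over all genes tested. No member had EGCG and Vehicle libraries that did not overlap, against a background of 11.9% of genes. The smallest two-sided p that a permutation of 2 against 2 libraries allows is 0.333, so every p rests on the model.

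What size of change these libraries leave possible differs between members. For the 7 genes other than Tlr1 and Tlr9, the approximate 95% intervals of the difference lay between -0.57 and 0.79. The interval was -2.26 to 2.39 for Tlr1 and -2.33 to 2.39 for Tlr9, since the replicate split enters their error. With the replicate number as a block, which compares EGCG with Vehicle inside each pair, the interval narrowed to -0.10 to 0.39 for Tlr1 and -0.16 to 0.42 for Tlr9. Over all 9 members it then lay between -0.22 and 0.42. The blocked test called 0 members at an unadjusted p under 0.05, with a background of 3.21%, and 0 at an adjusted p under 0.1, with a background of 0.00724%. Its lowest member p was 0.0675, for Tlr13 (log2 difference 0.12, adjusted p = 0.995 from edgeR).

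Inside the pairs, 3 members were higher in EGCG both times, 1 was lower both times and 5 went opposite ways. The background over genes was 29.9% higher in both, 20.6% lower in both and 49.2% opposite. For Tlr13 the pairs gave 0.09 (replicate 1) and 0.14 (replicate 2), and for Tlr8 -0.07 and -0.11. Tlr1 and Tlr9 were 0.34 and 0.37 higher with EGCG in replicate 1, but their differences were -0.02 and -0.07 in replicate 2. Tlr2 differed by -0.11 and then by 0.22. With 1 library per group and pair, a difference between the pairs in the effect of EGCG was not tested.

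**Figure D3:**
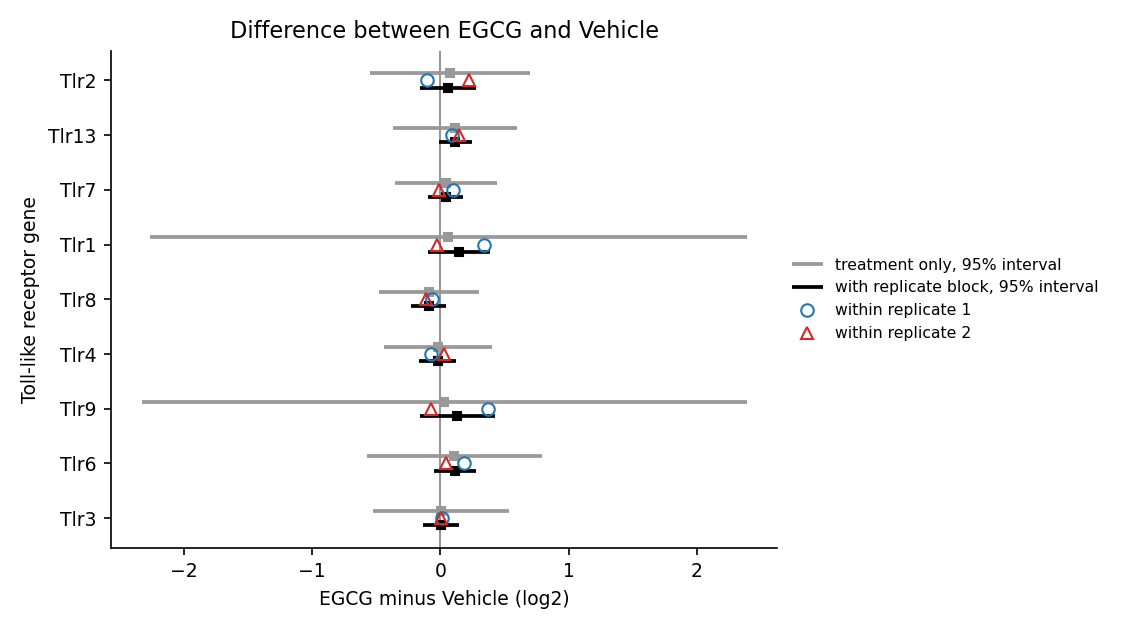
Log2 difference between EGCG and Vehicle for the 9 members tested. Grey lines are the 95% intervals of the test with treatment only, black lines those with the replicate block, squares their estimates, circles the difference within replicate 1 and triangles that within replicate 2. Every interval includes 0, and those of Tlr1 and Tlr9 reach from below -2 to above 2 without the block.

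Residual cells differed between the libraries compared. Of 6 fibroblast and mural cell markers (Col1a1, Col1a2, Col3a1, Dcn, Lum, Pdgfrb), all 6 were above the floor in 3 libraries and 3 in EGCG replicate 1, where Lum had 0 counts. Their summed level was 48.8, 0.227, 19.5 and 21.0 RPKM. The differences of replicate 1 (Tlr1, Tlr9 and Tlr6 higher with EGCG) come from the pair in which this sum differs, and those of replicate 2 from a pair in which it is alike. Its part in the receptor values, or in those of the other genes described below, was not tested. Of 10 microglia markers, 9 were above the floor in each library, summing to 1440 to 1610 RPKM, while Siglech had 0 to 3 counts. In whole cultures, fewer cells of a type and less RNA per cell cannot be told apart.

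Between the replicate numbers the receptors differed more than between the treatments. The test of the replicate number, in the fit that also holds treatment, asks how far the libraries of replicate 2 stand from those of replicate 1. It called 8 of the 9 members at an adjusted p under 0.1 (edgeR), 7 higher and 1 lower in replicate 2, with a background of 53.5% of genes (27.7% higher and 25.7% lower). DESeq2 called 5 members, with a background of 36%. The 2 libraries of a number may come from the same cultures, so these p-values compare the particular libraries, and culture, table and anything else that goes with the number cannot be told apart.

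Tlr1 and Tlr9 stood out in size. Tlr1 had a mean of 13.4 RPKM in replicate 1 and 42.5 in replicate 2, a log2 difference of 1.67 (standard error 0.10, adjusted p = 0.000281 from edgeR). Taken by group, the difference was 1.85 in Vehicle and 1.49 in EGCG. Tlr9 went from 7.85 to 25.2 RPKM, a log2 difference of 1.69 (standard error 0.12, adjusted p = 0.000441), with 1.92 in Vehicle and 1.47 in EGCG. Being over 1 higher in replicate 2 (log2), in both groups, held for these 2 members and for 4.31% of all genes (595).

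Smaller differences were found for 6 members. Tlr6 was 0.41 higher in replicate 2 (adjusted p = 0.00517), Tlr2 0.31 (0.0380), Tlr3 0.29 (0.0108), Tlr4 0.18 (0.0528) and Tlr8 0.15 (0.0684), all adjusted p from edgeR. Tlr13 was lower, by a difference of -0.20 (adjusted p = 0.0252). For Tlr7 the difference was -0.05 (adjusted p = 0.456), with a 95% interval from -0.19 to 0.08. Tlr3, Tlr4 and Tlr8 did not pass in DESeq2, at adjusted p of 0.121, 0.213 and 0.311. The neighbours on a chromosome thus had unlike differences, 1.67 for Tlr1 against 0.41 for Tlr6. Because these genes share sequence, their counts were also summed. The sum was 69.5, 84.1, 185 and 184 CPM and differed by 1.27 (adjusted p = 0.000341 from edgeR), an alternative added after the values were seen.

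**Figure D4:**
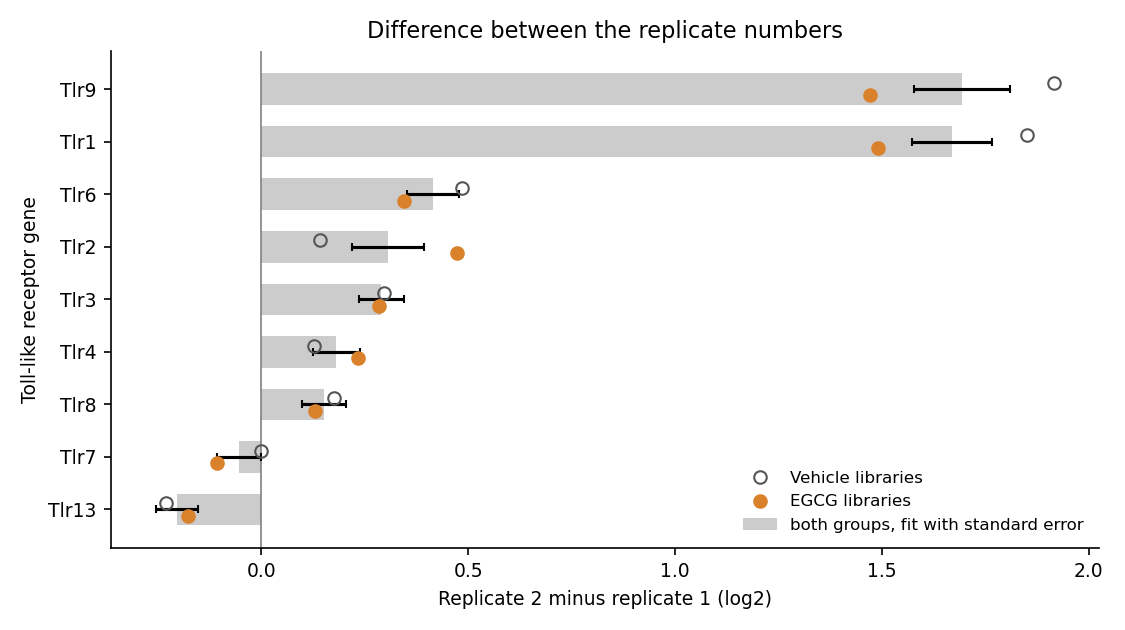
Log2 difference between replicate 2 and replicate 1 for the 9 members tested. Bars are the fit over both groups with its standard error, open circles the Vehicle libraries and filled circles the EGCG libraries. Tlr9 (1.69) and Tlr1 (1.67) exceed every other member, of which the highest is Tlr6 at 0.41.

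Some markers of other cells also moved with the replicate number. The 4 border macrophage markers (Mrc1, Ms4a7, Lyve1, Cd163) summed to 82.6, 105, 167 and 162 RPKM, with 3 or 4 of the 4 above the floor. Mrc1 and Ms4a7 made up nearly all of it and carried the rise. Lyve1 was not higher in replicate 2, at 0.177, 0.203, 0.0561 and 0.174 RPKM, and Cd163 had 0 to 4 counts. The endothelial gene Pecam1 had 2, 3, 580 and 741 counts, while Cdh5, another endothelial gene, had 79, 26, 34 and 13 and Cldn5 had 0 in every library. Of these 3 endothelial markers, Pecam1 alone was higher in replicate 2. Of 4 neutrophil markers, S100a8 alone was above the floor, and the list summed to 16.1, 18.4, 4.13 and 4.99 RPKM. Dendritic cell markers summed to 0.675 to 1.16 RPKM, with Flt3 and Cd209a at 0 throughout. Astrocyte markers summed to 2.63 to 3.33 RPKM, oligodendrocyte lineage markers to 12.2 to 16.1, and neuronal markers to 2.64, 2.45, 0.163 and 0.273. Of the 3 neuronal genes, Snap25 alone carried this difference (2.54, 2.41, 0.0763 and 0.0961 RPKM), and Rbfox3 and Tubb3 stayed at or below 0.146 RPKM. T, B and NK cell markers gave 1 count in all 4 libraries. The part of these markers in the levels of Tlr1 and Tlr9 was not tested.

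Promoter windows are shown for Tlr1 and Tlr9, because these members differed together between the replicate numbers. They are the 250 bases before the transcript start in the RefSeq table for GRCm38.p6, which holds 10 windows for 8 of the members. Capitals mark GAGGAA, a core of ETS factor sites such as those of PU.1, and TGANTCA, the AP-1 motif. Of the windows of Tlr1, the one printed is chr5:64933559-64933808 (minus strand), while the other, chr5:64932700-64932949, holds neither motif. The single window of Tlr9 is chr9:106222348-106222597 (plus strand).
Tlr1: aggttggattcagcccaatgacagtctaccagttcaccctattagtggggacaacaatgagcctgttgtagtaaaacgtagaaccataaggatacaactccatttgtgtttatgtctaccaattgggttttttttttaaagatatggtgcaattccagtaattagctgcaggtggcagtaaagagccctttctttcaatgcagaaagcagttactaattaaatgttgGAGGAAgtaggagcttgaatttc
Tlr9: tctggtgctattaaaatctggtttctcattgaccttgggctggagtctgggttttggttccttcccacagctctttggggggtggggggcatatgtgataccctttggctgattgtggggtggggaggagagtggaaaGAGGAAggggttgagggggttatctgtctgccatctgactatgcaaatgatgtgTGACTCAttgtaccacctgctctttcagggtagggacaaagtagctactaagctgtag
GAGGAA, searched on both strands, occurred in 4 of the 10 windows (Tlr1, Tlr8, Tlr9 and Tlr13) and in 23.3% of 32851 windows of all genes. It was thus also present at Tlr8 and Tlr13, whose levels differed little between replicates. TGANTCA was found at Tlr9 only, and in 6.75% of all windows. A match in these letters is a description of the sequence and not evidence of binding.

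Genes that serve the receptors were compared in the same way. The lists (74 genes, of which 72 were tested) cover the path from ligand to target genes. In edgeR with no term but treatment, 0 of the 72 had an unadjusted p under 0.05, and the lowest p was 0.143. With the replicate block 11 did (15.3%, against a background of 3.21%), 9 higher (background 2.12%) and 2 lower (1.09%) in EGCG. None of the 72 passed an adjusted p under 0.1 in edgeR with or without the block. Across all genes tested, the EGCG differences of replicate 1 and replicate 2 did not correlate (Pearson r = -0.05), which limits what the blocked results show. Some of these genes (Cd36, Cxcl1, Cxcl10 and Ccl3) were named in the study from these same samples and are not independent evidence.

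Among the genes for ligand transfer and co-receptors, 2 of 6 had a blocked p under 0.05, both higher in EGCG. Cd180, a receptor-like protein of B cells and macrophages, was at 41.4, 51.7, 46.3 and 53.4 RPKM, with both EGCG libraries above both Vehicle libraries. The groups did not overlap for 11.9% of all genes tested. In these lists this also held for Ap3b1, Tnfaip3, Ccl3 and Ccl4 (higher in EGCG) and for Cnpy4, Irak1 and Ikbkg (lower). The log2 difference of Cd180 was 0.26 with or without the block (adjusted p = 0.995 from edgeR with the block). Its partner Ly86 was at 36.8, 37.9, 60.1 and 58.6 RPKM, alike inside each pair and higher in replicate 2. Cd36, a scavenger receptor that assists TLR2, was at 101, 125, 45.7 and 63.1 RPKM, higher with EGCG inside each pair. It was the only gene of these lists at an adjusted p under 0.1 in the blocked fit of DESeq2 (adjusted p = 0.00414, background 0.0507%), against an adjusted p of 0.995 in edgeR. Cd14, which delivers lipopolysaccharide, was at 508, 386, 813 and 881 RPKM, or 24.9 to 48.2 times the level of Tlr4. Ly96, the subunit through which TLR4 binds lipopolysaccharide, was at 13.8, 14.4, 19.6 and 19.3 RPKM, close to the level of Tlr4 itself.

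None of the 9 chaperone and trafficking genes had a p under 0.05 in either edgeR test. Unc93b1, which carries the nucleic acid receptors to endosomes, was at 142, 156, 257 and 251 RPKM, between 9.92 and 20.7 times the level of Tlr9. Cnpy3, a co-chaperone needed for folding of most members, was at 25.7, 25.8, 55.0 and 49.9 RPKM. Both were higher in the replicate 2 libraries, as Tlr9 was, whereas Hsp90b1, the chaperone CNPY3 works with, was at 180, 186, 144 and 147 RPKM. Ctsl, a protease that cleaves endosomal receptors, was at 1380, 1410, 539 and 574 RPKM. Ap3b1 and Slc15a4, which act in trafficking, differed by 0.10 and 0.09 on the log2 scale between EGCG and Vehicle.

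Of the adaptors, the kinases and ligases and the transcription factors, 0 of 5, 0 of 16 and 0 of 6 had a p under 0.05 in either edgeR test. The adaptor Myd88 was at 28.9, 30.4, 34.4 and 34.0 RPKM. Ticam1 was at 8.55, 9.29, 11.7 and 12.4, its bridging adaptor Ticam2 at 6.17, 6.55, 9.57 and 8.89, and Tirap, which bridges TLR2 and TLR4 to MYD88, at 4.80, 4.18, 5.40 and 5.16. Of the kinases and ligases, Tab2 had the highest mean at 23.5, 23.7, 38.9 and 39.4 RPKM, and Irak2 and Peli1 differed by 0.13 and 0.10 on the log2 scale between EGCG and Vehicle. Irf5, which acts after MYD88, was at 48.8, 53.2, 62.8 and 60.7 RPKM, and Irf7, which drives interferon genes, at 59.0, 59.5, 44.5 and 48.9. Irf3, activated through TRIF, was between 9.65 and 12.4 RPKM.

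Of 10 negative regulators, 2 had a blocked p under 0.05, both higher in EGCG. Nfkbia, the inhibitor that holds NF-κB in the cytoplasm, was at 37.5, 44.9, 64.3 and 72.6 RPKM (blocked log2 difference 0.22). Tnfaip3, an enzyme that edits ubiquitin on signalling proteins, was at 17.2, 19.0, 17.2 and 21.3 RPKM (0.23), each at an adjusted p = 0.995 in edgeR. Of 20 genes induced by receptor ligands, 19 were tested, and 5 were higher and 2 lower by the blocked p. Cxcl10, a chemokine induced by interferon, was at 2.84, 4.59, 4.70 and 7.13 RPKM (blocked log2 difference 0.64, adjusted p = 0.995 from edgeR). The neutrophil chemokine Cxcl1 was low, at 0.764, 0.233, 3.87 and 2.08 RPKM (-1.20, adjusted p = 0.995 from edgeR). It had 47, 14, 266 and 215 counts. Its log2 difference was -1.60 in replicate 1, the pair in which the fibroblast and mural cell sum differs, and -0.89 in replicate 2. The other 5 were Tnf, Ccl2, Ccl3 and Acod1, all higher, and Nos2, lower. Without the block, 0 of these genes had a p under 0.05. Ccl5, the highest of the list, was at 161, 201, 1030 and 1040 RPKM.

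**Figure D5:**
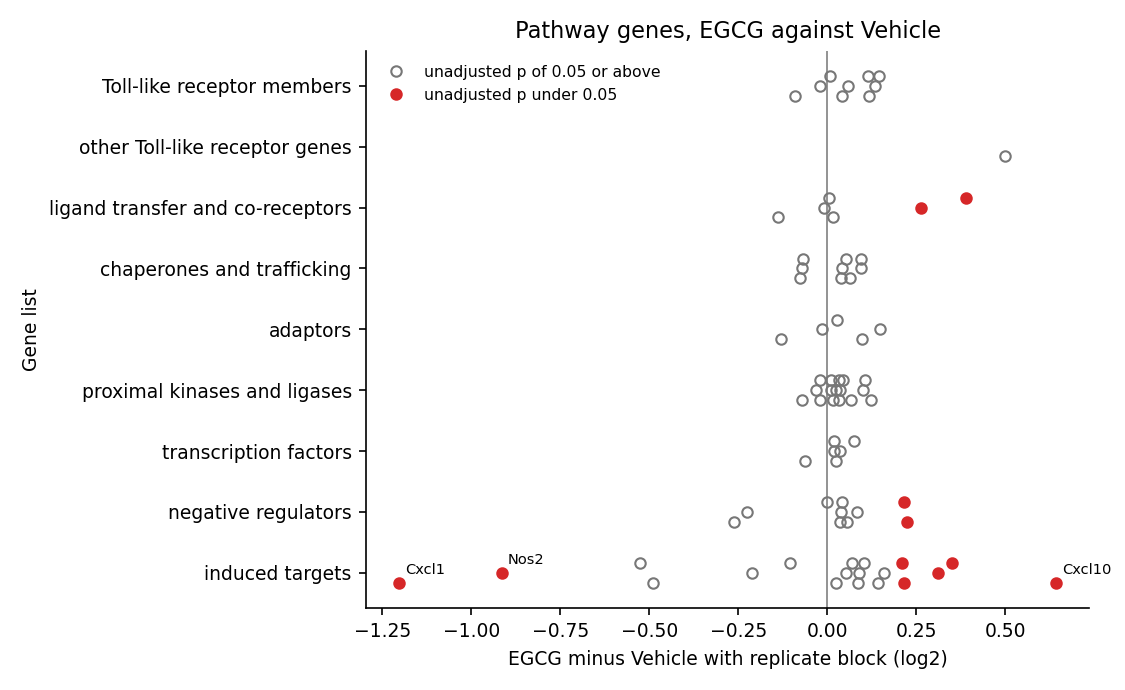
Log2 difference between EGCG and Vehicle in the blocked edgeR test for each tested gene of the Toll-like receptor family and the 8 pathway lists. Red points have an unadjusted p under 0.05, open points do not, and height within a row only spreads the points. None of the 9 receptors is red, and 11 of the 72 pathway genes are.

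With the replicate number, 53 of the 72 pathway genes differed at an adjusted p under 0.1 in edgeR (73.6%, against a background of 53.5%), 38 higher and 15 lower in replicate 2. The proportions of the lists were 5 of 6 for ligand transfer and co-receptors, 5 of 9 for chaperones, 4 of 5 for adaptors, 11 of 16 for kinases and ligases, 6 of 6 for transcription factors, 6 of 10 for negative regulators and 16 of 19 for induced targets. Some genes, picked after their values were seen, exceeded Tlr1 and Tlr9 in size. Lbp, which binds lipopolysaccharide, was at 0.189, 0.181, 9.39 and 9.40 RPKM, and the cytokine gene Il1b at 40.3, 29.5, 611 and 608. Nfkbiz, a nuclear regulator of NF-κB targets, was at 5.96, 5.54, 26.6 and 24.8 RPKM. The interferon-induced gene Isg15 went the other way, and by less than Tlr1 and Tlr9, at 89.6, 98.0, 36.2 and 37.3 RPKM.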

How the data were processed

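Poly-A RNA of 4 libraries was sequenced in pairs on a strand-specific protocol. The authors deposited counts of whole reads for each gene, without normalization, as 1 table per replicate number with a Vehicle and an EGCG column. Per the labels the reads were aligned with HISAT2 to GRCm38.p6, and the counting program, the annotation and the treatment of reads that match several genes are not given in the sources used here. Groups came from the labels. The replicate number of each table came from the submission sheet supplied with the study.

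Tables were joined on the Ensembl identifier (54532 genes). Unnamed loci, which each table numbers on its own (697 and 329), were dropped. Protein-coding genes (98.0% to 98.1% of counts) with at least 10 counts over the 4 libraries, 13811 in all, were tested in R 4.3.3 with edgeR 4.0.16 (TMM, quasi-likelihood F test, two-sided, treatment as the only term, Benjamini-Hochberg). DESeq2 1.42.0 was an alternative. RPKM used the TMM-scaled totals and the gene length of the tables. The fits were run on simulated counts with planted differences larger than the EGCG differences of the members. That run checked the code and does not show how small a member difference could be found. Counting floors of 3 counts cover counting error only. The labels call the replicates biological but name no cultures, so p-values measure the spread between these libraries, which may be partly technical.

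Libraries were compared for duplicates by chi-square over genes, which gave 264 and 263 per gene between libraries of a group and 11.9 and 9.84 within a number. Pairing by number rests on the shared table. Across genes, the differences between replicates correlated between the groups (Pearson r = 0.64, genes are not independent replicates), so libraries of a number deviated together. The differences between EGCG and Vehicle did not correlate between replicate 1 and replicate 2 (r = -0.05). The study's methods use treatment alone, and the block is the alternative. Without the block, DESeq2 called 24 genes at an unadjusted p under 0.05 and 1 at an adjusted p under 0.1. With the block the counts were 153 and 7, and the counts that the study reported were nearer to these.

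The members, the pathway lists and the tests were chosen with earlier results of these data known. Named genes are all 10 members, the main partners of the receptors by role, and from each list the gene of highest level, any gene at an unadjusted p under 0.05 without the block and the 2 with the smallest blocked p. Similar sequences were found with BLAST 2.17.0 and exact matching of coding sequences from GENCODE in Python 3.11.15. Alternatives covered the test, normalization, filter, gene class, block and leaving out each library.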

Additional observations from a re-analysis of the deposited data

How the results depend on the processing

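No member passed an unadjusted p of 0.05 under any of the 17 alternatives, where the lowest member p was 0.0675. The count of all genes at an unadjusted p under 0.05 (16, 4 of them higher in EGCG) did move. It was 78 (10 higher) with edgeR's likelihood ratio test, 38 (7) with its newer dispersion method, 35 (10) over all biotypes, 3 (2) with at least 10 counts in every library, and 6 (2) with filterByExpr. Upper-quartile factors and no filter each left 2 higher. With the replicate block it was 444 (293) in edgeR, 153 (92) in DESeq2 and 523 (288) with the newer method, and the count at an adjusted p under 0.1 was 1, 7 and 2, against 0 without it. DESeq2 without the block gave 1. The block changed no member's call. Leaving out 1 library at a time gave 8 to 131 genes at an unadjusted p under 0.05 and 3 to 13 higher ones. The extremes were 8 without EGCG replicate 1 and 131 without EGCG replicate 2, and it was 57 without Vehicle replicate 2. The lone library left is then assumed to vary like the other group.

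Signs of small member differences depended on these choices. Tlr3 turned to -0.0094 with upper-quartile factors, -0.0067 with filterByExpr, -0.022 with total counts and -0.0019 with at least 10 counts in every library. Leaving out 1 library at a time gave -0.90 to 1.26 for Tlr1, -0.92 to 1.28 for Tlr9, -0.21 to 0.29 for Tlr2, -0.17 to 0.15 for Tlr3, -0.17 to 0.093 for Tlr4, -0.11 to 0.36 for Tlr6, -0.012 to 0.067 for Tlr7 and -0.014 to 0.24 for Tlr13. Tlr1 and Tlr9 were lowest without EGCG replicate 2 and highest without Vehicle replicate 2. None of these passed the test. Between replicate numbers, DESeq2 called 5 members in place of 8, and the difference of Tlr7 was 0.025 with total counts. Why these values moved was not tested.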
